A study of Mus musculus with 20 samples.

Results

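The data describe the RNA levels of 10 genes of double-strand break sensing and end joining (Atm, Trp53bp1, H2afx, Prkdc, Xrcc5, Xrcc6, Dclre1c, Xrcc4, Lig4 and Nhej1) in mouse peripheral blood. The genes were found by the gene names in the array files, and they are carried by 15 of the 39429 probes that are not controls. Blood was taken 24 h after whole-body exposure to 7 Gy of X-rays or after sham exposure (0 Gy), from WT C57BL/6 mice and from Il10-/- mice of the strain B6.129P2-Il10tm1Cgn/J, which lack the anti-inflammatory cytokine interleukin-10 and serve as a model of inflammatory bowel disease. All mice were males of 8 to 10 weeks, littermates from crosses of heterozygous parents, and all RNA was from PAXgene-stabilized whole blood after globin transcripts had been reduced. Each of the 4 groups has 5 single-colour Agilent arrays, listed as separate samples, and each of the 5 slides carries 1 array of every group under 1 replicate number.

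A double-strand break is held by the Ku heterodimer, made of the products of Xrcc5 (Ku80) and Xrcc6 (Ku70), which recruits the kinase encoded by Prkdc to form DNA-PK. Artemis (Dclre1c) trims ends that cannot be joined directly, and DNA ligase IV (Lig4) seals them together with XRCC4 and XLF (Nhej1). In parallel, the kinase ATM phosphorylates the histone variant H2AX (H2afx) around the break, and 53BP1 (Trp53bp1) gathers on the marked chromatin and protects the ends from resection. Lymphocytes also use this machinery to join the programmed breaks of antigen-receptor gene rearrangement.

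Levels are log2 intensities of a probe minus the median of its array, so 0 is the array's median probe, and a difference of 1 is a doubling of the intensity. Levels of different probes were not compared with each other. A difference was called where limma gave an unadjusted p under 0.001 and an adjusted p (Benjamini-Hochberg) under 10%, over all 18587 probes that passed the filters on background and on variation, and all adjusted p-values below are of that kind. Of the 15 probes, 14 passed the background filter and 11 probes of 8 genes passed both. Xrcc4, Nhej1 and probe A_52_P369581 of Atm missed only the variation filter, which asks for a 1.5-fold deviation on 20% of the arrays, and their values come from the fit without it. The second Trp53bp1 probe (A_66_P139355) stood well above background on none of the 20 arrays and was not tested. For genes with several probes, the main probe is the brightest that passed the background filter.

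Some features of the series touch all values. The Il10 probe goes against a plain reading of the labels, since it lay between -2.64 and -1.06 in mice labelled WT, well above background on none of their arrays, and between 1.94 and 3.29 in mice labelled Il10-/-. Where the probe lies relative to the disrupted part of the gene is not given in the sources used here, so whether it checks the genotype was not tested, and every genotype direction rests on the labels. Cdkn1a, the p53 target that encodes p21, lay between -0.76 and 2.37 on the unirradiated arrays and between 5.42 and 7.35 on the irradiated ones (probe A_51_P363947). The unirradiated array of replicate 5 labelled WT was weak, with 29.9% of spots well above background against 34.6% to 57.8% on the other arrays. In mice labelled Il10-/- this share ran from 49.4% to 57.8% at 0 Gy. At 7 Gy it was 51.7%, 53.8%, 34.6%, 39.0% and 41.0% in replicates 1 to 5, so 3 irradiated arrays were weaker than every unirradiated one. The part of this in the differences between doses was not tested. Replicates 1 and 2 were unusually alike in every group, with a robust SD of their differences of 0.14 to 0.229 against 0.248 to 1.089 in the 36 other pairs, so the leading counts are also given with these averaged into 1 sample. Whether replicates 1 and 2 were separate animals beyond their listing could not be checked, and if they were not, the p-values measure partly technical spread.

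Of the members, 8 were matched by symbol to 9 promoter windows in RefSeq (GRCm38.p6), here the 250 bases before the transcription start. Prkdc, which was called lower in mice labelled Il10-/-, and H2afx had no window. Shown are the windows of Atm and Trp53bp1, which were called lower after exposure in mice labelled Il10-/- alone, and of Xrcc6 and Nhej1, which were not called. Capitals mark the GC box (GGGCGG), the CCAAT box (CCAAT) and the core of the NRF1 site (GCGCATGC), each searched on both strands, and no 2 marked matches overlap in these windows.
Atm, chr9:53536672-53536921, minus strand: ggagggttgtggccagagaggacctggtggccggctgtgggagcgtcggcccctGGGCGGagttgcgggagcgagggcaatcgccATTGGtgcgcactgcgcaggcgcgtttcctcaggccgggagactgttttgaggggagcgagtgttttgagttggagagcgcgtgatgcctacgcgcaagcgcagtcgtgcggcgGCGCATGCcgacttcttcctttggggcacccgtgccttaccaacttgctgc
Trp53bp1, chr2:121271408-121271657, minus strand: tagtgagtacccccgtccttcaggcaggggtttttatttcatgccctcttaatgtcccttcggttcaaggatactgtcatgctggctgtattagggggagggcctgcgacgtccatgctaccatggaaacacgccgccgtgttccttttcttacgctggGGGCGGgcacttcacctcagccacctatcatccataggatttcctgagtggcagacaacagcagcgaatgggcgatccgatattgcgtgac
Xrcc6, chr15:82016119-82016368, plus strand: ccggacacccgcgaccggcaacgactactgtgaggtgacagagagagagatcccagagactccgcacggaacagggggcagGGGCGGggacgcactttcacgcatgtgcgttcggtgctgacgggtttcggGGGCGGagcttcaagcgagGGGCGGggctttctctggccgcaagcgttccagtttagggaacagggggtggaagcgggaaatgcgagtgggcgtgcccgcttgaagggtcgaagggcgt
Nhej1, chr1:75125227-75125476, minus strand: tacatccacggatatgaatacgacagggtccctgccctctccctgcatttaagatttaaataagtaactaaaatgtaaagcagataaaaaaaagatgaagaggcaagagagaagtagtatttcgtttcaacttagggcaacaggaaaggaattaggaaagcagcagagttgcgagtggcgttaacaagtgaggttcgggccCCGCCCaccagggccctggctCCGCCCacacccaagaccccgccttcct

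The GC box occurred in 7 of the 9 member windows and in 32.7% of all 32851 windows of the table. The CCAAT box occurred in 3 of 9 and in 33.8% of all. The NRF1 core, chosen after the windows had been read, occurred in 2 of 9 (Atm and 1 of the 2 windows of Lig4) and in 2.26% of all. The TATA box (TATAAA) was found in 0 of 9 windows and in 12.4% of all, and the p53 half-site in 0 of 9 and in 7.13% of all. GC boxes lay in the windows of Atm and Trp53bp1, which were called. They also lay in those of Nhej1, Dclre1c, Xrcc4 and Xrcc6 and in 1 of the 2 windows of Lig4, which were not called. The window of Xrcc5, not called either, held no GC box.

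Among the sensing genes, Trp53bp1 and the main probe of Atm were called lower after 7 Gy in mice labelled Il10-/-, neither was called in mice labelled WT, and H2afx was called in neither. Atm encodes the kinase that opens the response to breaks. Its main probe (A_52_P400509, mm9 chr9:53245871-53245930, minus strand) read 1.76, 1.46, 0.54, 0.98 and 0.16 in replicates 1 to 5 of the unirradiated mice labelled Il10-/-. After 7 Gy it read -0.64, -0.30, -0.20, -0.80 and -0.79. Every irradiated array was below every unirradiated one, and the spot was well above background on 4 unirradiated and on 0 irradiated arrays. The level fell by 1.52 (SE 0.31, n = 5 and 5, limma adjusted p = 0.00568). It is reported as at least 1.39-fold lower because the irradiated group has only a bound. This bound compares group means and leaves out their SE.

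The same Atm probe in mice labelled WT read 1.18, 1.35, 1.30, 0.43 and -1.32 at 0 Gy and -1.05, -0.27, -0.51, -0.51 and -0.75 at 7 Gy. The first 4 unirradiated arrays lay above all irradiated ones, and replicate 5, the weak array, lay below them. The difference was -1.20 (SE 0.49, limma adjusted p = 0.113) and was not called. No fold is given, because the irradiated group has only a bound and the groups overlapped. Without replicate 5 of the unirradiated group it was -1.68 with an adjusted p of 0.00349 and was called.

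**Figure D1:**
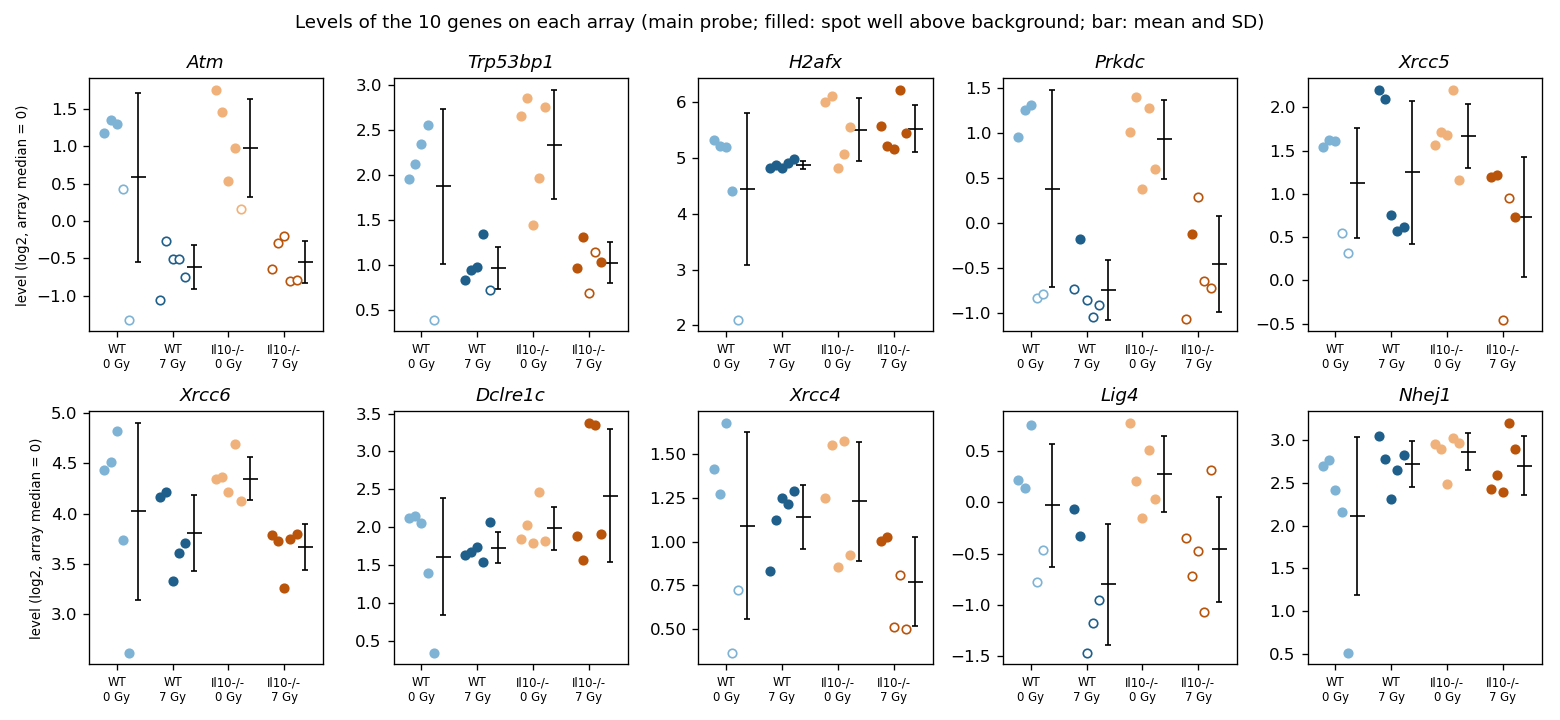
Log2 level of each of the 10 genes on every array (main probe, array median at 0), with the 5 arrays of each group from left to right by replicate number and the mean and SD as a bar beside them; filled points are spots well above background. Atm, Trp53bp1 and Prkdc are lower on all 5 irradiated arrays than on all 5 unirradiated ones in mice labelled Il10-/-, and replicate 5 of the unirradiated mice labelled WT is the lowest of its group for most genes.

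The other Atm probe (A_52_P369581, chr9:53256167-53256226), 10296 bases away in mm9 and toward the start of the gene, gave another picture. It is printed because the probes of Atm disagree, together with the Trp53bp1 probe on which that gene's values rest.
Atm A_52_P369581: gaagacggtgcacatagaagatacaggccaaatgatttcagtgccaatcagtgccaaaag
Trp53bp1 A_52_P464437: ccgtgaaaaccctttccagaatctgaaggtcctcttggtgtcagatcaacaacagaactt

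The second Atm probe in mice labelled WT read 0.16, 0.17, 0.11, 0.32 and -0.02 at 0 Gy and -0.79, -0.55, -0.73, -0.43 and -0.35 at 7 Gy. All irradiated arrays were below all unirradiated ones (4.26% of all tested probes were lower without overlap), with a difference of -0.71 (SE 0.31, adjusted p = 0.158, limma without the variation filter), which was not called. The readings in mice labelled Il10-/- were 0.07, 0.29, -0.71, -0.27 and -0.68 at 0 Gy and -0.72, -0.74, 0.07, -0.69 and -0.53 at 7 Gy. These groups overlapped, and the difference was -0.26 (SE 0.26, adjusted p = 0.51). Of the 20 arrays, 5 showed this probe well above background and 7 the main probe. This probe is averaged over 10 spots per array, and the main probe is 1 spot. The main probe was marked as an outlier or at background on 2 arrays, replicates 3 and 4 of the irradiated mice labelled Il10-/-, and this probe on 1 array.

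**Figure D2:**
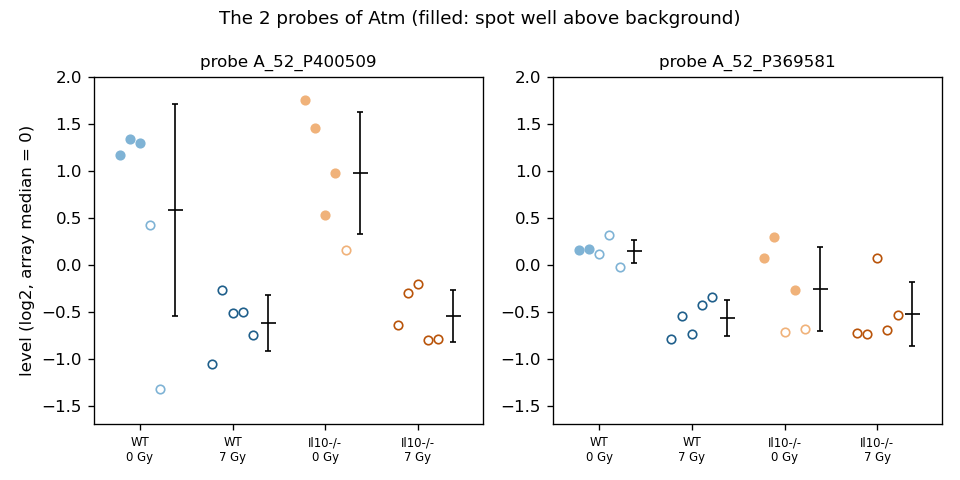
Log2 level (array median at 0) of both Atm probes on every array, with mean and SD beside each group and filled points for spots well above background. In mice labelled Il10-/- the irradiated and unirradiated arrays separate for A_52_P400509 and overlap for A_52_P369581, and in mice labelled WT the reverse is seen, with replicate 5 at 0 Gy alone below the irradiated arrays for A_52_P400509.

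Trp53bp1 encodes 53BP1, the chromatin reader that favours end joining over resection. Its probe (A_52_P464437, mm9 chr2:121024792-121024851, minus strand) read 2.66, 2.86, 1.45, 1.97 and 2.76 at 0 Gy in mice labelled Il10-/-. After 7 Gy it read 0.97, 1.30, 0.68, 1.14 and 1.03. The groups did not overlap, and the level fell by 1.31 (SE 0.30, limma adjusted p = 0.00916), a 2.49-fold difference, with 3 of 5 irradiated arrays well above background.

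Trp53bp1 in mice labelled WT read 1.96, 2.12, 2.34, 2.56 and 0.38 at 0 Gy and 0.83, 0.94, 0.98, 1.35 and 0.72 at 7 Gy. The weak array was again the single unirradiated one that did not lie above all irradiated arrays, and it lay below them. The difference was -0.91 (SE 0.43, limma adjusted p = 0.174) and was not called, and without that array it was -1.28 with an adjusted p of 0.00672 and was called.

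H2afx encodes the histone variant that ATM and DNA-PK phosphorylate at breaks (A_51_P245275, mm9 chr9:44144033-44144092, plus strand). In mice labelled WT it read 5.32, 5.22, 5.19, 4.42 and 2.10 at 0 Gy and 4.82, 4.87, 4.82, 4.92 and 4.99 at 7 Gy. Mice labelled Il10-/- gave 6.00, 6.11, 4.83, 5.08 and 5.55 at 0 Gy and 5.58, 5.22, 5.17, 6.23 and 5.45 at 7 Gy. The radiation groups overlapped in both genotypes. The differences were 0.44 (SE 0.54, limma adjusted p = 0.645) and 0.01 (SE 0.31, adjusted p = 0.98), and without the weak array the first was -0.15.

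Within DNA-PK, the catalytic subunit was lower after 7 Gy in mice labelled Il10-/-, and both Ku subunits missed the threshold. Prkdc (A_51_P241667, mm9 chr16:15841863-15841922, plus strand) read 1.01, 1.41, 0.38, 1.28 and 0.60 at 0 Gy in mice labelled Il10-/-. After 7 Gy it read -1.06, -0.12, 0.29, -0.65 and -0.72. The groups did not overlap, with the highest irradiated value (0.29) close below the lowest unirradiated one (0.38), and the level fell by 1.39 (SE 0.31, limma adjusted p = 0.00846). Of the irradiated arrays, 1 of 5 was well above background, so no fold is given.

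Prkdc in mice labelled WT read 0.96, 1.27, 1.32, -0.83 and -0.79 at 0 Gy and -0.74, -0.18, -0.85, -1.04 and -0.91 at 7 Gy. Replicates 4 and 5 at 0 Gy lay among the irradiated arrays, while the other 3 lay above them. The difference was -1.13 (SE 0.49, limma adjusted p = 0.135) and was not called.

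Xrcc6, the Ku70 gene (A_66_P108567, mm9 chr15:81870452-81870511, plus strand), read 4.35, 4.36, 4.21, 4.69 and 4.13 at 0 Gy and 3.79, 3.73, 3.26, 3.74 and 3.80 at 7 Gy in mice labelled Il10-/-. These groups did not overlap, yet the difference of -0.68 (SE 0.21, unadjusted p = 0.00707, limma adjusted p = 0.0378) missed the threshold on the unadjusted p. In mice labelled WT it read 4.43, 4.51, 4.82, 3.73 and 2.62 against 4.16, 4.21, 3.33, 3.60 and 3.71, with a difference of -0.22 (SE 0.44, adjusted p = 0.793).

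Xrcc5, the Ku80 gene (A_51_P201661, with no position in the files), read 1.56, 1.72, 1.68, 2.20 and 1.17 at 0 Gy and 1.20, 1.22, -0.46, 0.95 and 0.73 at 7 Gy in mice labelled Il10-/-. The lowest irradiated value came from replicate 3. The difference was -0.94 (SE 0.34, limma adjusted p = 0.064). Mice labelled WT gave 1.54, 1.62, 1.61, 0.55 and 0.32 against 2.20, 2.09, 0.75, 0.58 and 0.62, with a difference of 0.12 (SE 0.46, adjusted p = 0.893). Replicates 1 and 2 at 7 Gy were above all unirradiated arrays there.

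**Figure D3:**
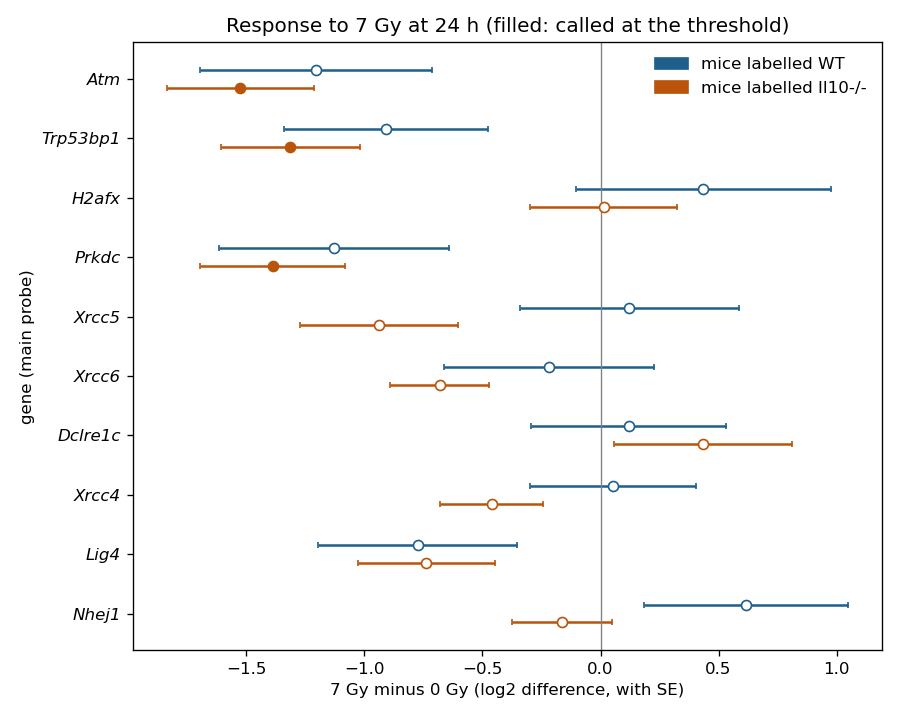
Difference of 7 Gy minus 0 Gy (log2, points, with SE as bars) for the main probe of each gene in mice labelled WT (blue) and Il10-/- (orange), filled where called. The 3 called differences, Atm, Trp53bp1 and Prkdc in mice labelled Il10-/-, run from -1.52 to -1.31, and the same genes in mice labelled WT from -1.20 to -0.91.

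Dclre1c, the gene of the nuclease Artemis, was measured by 4 probes, and none of them was called in any comparison. The main probe (A_55_P2129291, mm9 chr2:3371015-3371074, plus strand) read 2.12, 2.15, 2.05, 1.39 and 0.34 at 0 Gy and 1.63, 1.67, 1.73, 1.54 and 2.07 at 7 Gy in mice labelled WT. Mice labelled Il10-/- gave 1.84, 2.02, 1.79, 2.46 and 1.81 at 0 Gy and 1.89, 1.56, 3.38, 3.35 and 1.92 at 7 Gy. Replicates 3 and 4 at 7 Gy stood above all other arrays of the series for this probe, and the difference was 0.43 (SE 0.38, limma adjusted p = 0.441). Over the 4 probes the differences ran from 0.05 to 0.32 in mice labelled WT and from -0.09 to 0.43 over 3 of them in mice labelled Il10-/-, where the fourth (A_55_P2067131) was well above background on none of the arrays. Without the weak array the main probe of Dclre1c differed by -0.20 in place of 0.12 in mice labelled WT. The high arrays were shared only in part by the other probes, since A_52_P462203 was highest in replicate 4 (2.74, against 1.23 in replicate 3) and A_55_P2067116 in replicate 3 (1.34, against -0.17 in replicate 4).

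Of the ligation genes, none was called. Lig4, which encodes the ligase itself (A_52_P569549, minus strand), read 0.78, 0.21, -0.15, 0.51 and 0.04 at 0 Gy and -0.35, -0.72, -0.48, -1.07 and 0.32 at 7 Gy in mice labelled Il10-/-. It was well above background on all 5 unirradiated and on 0 of the 5 irradiated arrays, and 4 of the latter lay below all unirradiated ones. The difference was -0.74 (SE 0.29, limma adjusted p = 0.0889), and no fold is given because the irradiated group has only a bound. Its readings in mice labelled WT were 0.22, 0.14, 0.75, -0.77 and -0.46 against -0.06, -0.33, -1.47, -1.18 and -0.96, with a difference of -0.78 (SE 0.42, adjusted p = 0.242).

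Xrcc4, whose product holds ligase IV stable (A_55_P1981205, mm9 chr13:89988731-89988790, minus strand), read 1.42, 1.27, 1.68, 0.36 and 0.73 at 0 Gy and 0.84, 1.12, 1.25, 1.22 and 1.29 at 7 Gy in mice labelled WT. Mice labelled Il10-/- gave 1.25, 1.55, 0.85, 1.58 and 0.92 against 1.00, 1.03, 0.51, 0.81 and 0.50. The differences were 0.05 (SE 0.35, adjusted p = 0.947) and -0.46 (SE 0.22, adjusted p = 0.164) in limma without the variation filter.

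Nhej1, the XLF gene (A_52_P128964, mm9 chr1:75014076-75014135, minus strand), read 2.70, 2.76, 2.42, 2.16 and 0.51 at 0 Gy and 3.05, 2.79, 2.31, 2.66 and 2.83 at 7 Gy in mice labelled WT. In mice labelled Il10-/- it read 2.96, 2.90, 2.49, 3.02 and 2.97 against 2.42, 2.59, 2.40, 3.20 and 2.89. The differences were 0.62 (SE 0.43, adjusted p = 0.41) and -0.16 (SE 0.21, adjusted p = 0.628) in limma without the variation filter, and the groups overlapped in both genotypes.

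Counted over genes, 0 of the 8 tested members were called in mice labelled WT, where 6.8% of all tested probes were called (2.32% lower), and 2 (Atm and Prkdc) had an unadjusted p below 0.05 in limma against 29.1% of all probes. In mice labelled Il10-/-, 3 of 8 were called and all were lower, which is 3 of 11 probes (27.3%) against 5.87% of all tested probes called lower and 9.16% called in either direction. Of the 8 genes, 4 had groups without overlap, Xrcc6 being the fourth, against 10.9% of all probes that were lower without overlap, and 6 had an unadjusted p below 0.05, against 35.5% of all probes. These are counts of genes, which have 11 tested probes, set beside shares of probes, so the units are not alike. Without the variation filter, under which Xrcc4 and Nhej1 were not called either, 5.83% and 8.2% of 22997 probes were called in mice labelled WT and Il10-/-. The median difference over the 10 main probes was -0.08 in mice labelled WT (5 positive, 5 negative), beside -0.02 over all tested probes. It was -0.71 in mice labelled Il10-/- (2 positive, 8 negative), beside -0.10 over all tested probes.

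The 3 calls depend on which arrays are counted. With replicates 1 and 2 averaged, the differences of Atm, Prkdc and Trp53bp1 in mice labelled Il10-/- were -1.39, -1.28 and -1.24 with limma adjusted p of 0.035, 0.0417 and 0.0504, and 0 genes were called. After normexp background correction, which adds an offset and compresses dim probes, the 3 differences were -0.27, -0.25 and -0.51 beside a median of -0.32 over all tested probes, and none of the 3 genes passed the variation filter. Atm and Prkdc thus lay above that median, but it is over probes that passed the filters, so compressed dim probes are set beside an unlike set. With the series table, Prkdc in mice labelled Il10-/- was -0.79 (limma adjusted p = 0.306).

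Within slides, Atm was lower at 7 Gy on 5 of 5 slides in mice labelled Il10-/- (-2.40 to -0.74) and on 4 of 5 in mice labelled WT (-2.23 to 0.57). Prkdc was lower on 5 of 5 slides in both genotypes, by -2.07 to -0.09 in mice labelled Il10-/- and -2.17 to -0.12 in mice labelled WT. With the slide as a block its call in mice labelled Il10-/- was lost (unadjusted p = 0.00296, limma adjusted p = 0.0254). Trp53bp1 was lower on 5 of 5 slides in mice labelled Il10-/- (-1.73 to -0.77) and on 4 of 5 in mice labelled WT (-1.37 to 0.34). The exception for Atm and Trp53bp1 was the slide with the weak unirradiated array.

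**Figure D4:**
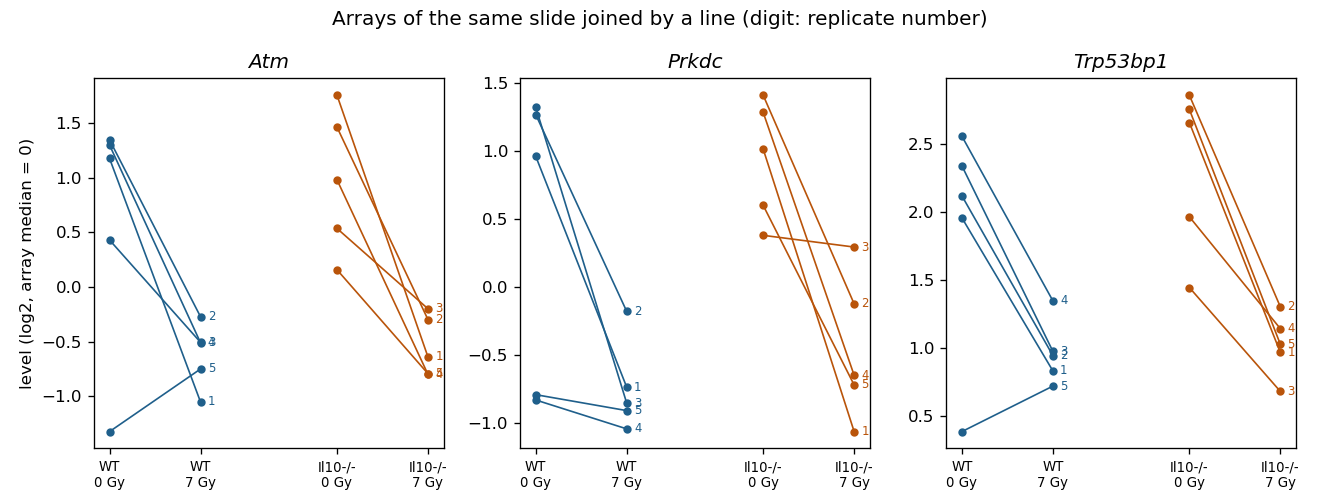
Log2 levels (array median at 0) of Atm, Prkdc and Trp53bp1, with the unirradiated and the irradiated array of the same slide and genotype joined by a line and the replicate number at its end. All 15 lines of mice labelled Il10-/- go down, and in mice labelled WT replicate 5 goes up for Atm and Trp53bp1.

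The responses of the 2 genotypes were compared directly by an interaction term, fitted in limma over the 20 arrays together. No member was called, 0 had an unadjusted p below 0.05, and 0 of all 18587 probes were called (0%), with 7% of them at an unadjusted p below 0.05. For the 3 genes called in mice labelled Il10-/-, the response there minus that in mice labelled WT was -0.32 for Atm (SE 0.60, adjusted p = 0.914), -0.41 for Trp53bp1 (SE 0.52, adjusted p = 0.859) and -0.26 for Prkdc (SE 0.59, adjusted p = 0.931). A difference between the genotypes in these responses was therefore not shown. The largest value among the members was that of Xrcc5, -1.06 (SE 0.58, unadjusted p = 0.0796, adjusted p = 0.688).

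Between the genotypes at 0 Gy, 0 of the 8 tested members were called, where 0.845% of all tested probes were called, and 0 members had an unadjusted p below 0.05 in limma, against 16.1% of all probes. Xrcc4 and Nhej1 were not called without the variation filter, where 0.578% were. All 10 main probes were higher in mice labelled Il10-/-, by a median of 0.43, but the median over all tested probes was itself 0.36 higher, and relative to that shift the members' median was 0.07. H2afx showed the largest difference, 1.07 (SE 0.54, limma adjusted p = 0.326), which was 0.48 without the weak array. Xrcc6, Xrcc4 and Lig4 changed sign under other scalings of the arrays.

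Between the genotypes at 7 Gy, 0 of 8 were called, with 0.00538% of all tested probes called (0.00435% without the variation filter), and 1 had an unadjusted p below 0.05, against 11.1% of all probes. H2afx was higher in mice labelled Il10-/- without overlap of the groups, by 0.64 (SE 0.24, unadjusted p = 0.0198, limma adjusted p = 0.402), where 2.24% of all probes were higher without overlap. Its lowest value in mice labelled Il10-/- was 5.17 and its highest in mice labelled WT 4.99. Atm (0.07, SE 0.23), Trp53bp1 (0.06, SE 0.22) and Prkdc (0.29, SE 0.29) had limma adjusted p of 0.92, 0.927 and 0.726. After normexp correction the difference of H2afx was -0.19, beside a median of -0.50 over all tested probes. It thus lay above that median.

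Of 37 other genes of the pathway, 22 were tested with 27 probes. In mice labelled Il10-/-, 2 were called and both were lower (7.41% of the probes, beside 5.87% of all tested probes called lower). Of the 22 genes, 8 had an unadjusted p below 0.05 in limma there, against 35.5% of all probes. In mice labelled WT 0 were called, where 6.8% of all tested probes were called, and 3 of the 22 genes had an unadjusted p below 0.05, against 29.1% of all probes. Atr, the kinase of the ATM family that responds to single-stranded DNA, fell by 1.40 in mice labelled Il10-/- (SE 0.31, limma adjusted p = 0.00785), and its difference was -0.94 in mice labelled WT (SE 0.41, adjusted p = 0.135). Dntt, the terminal transferase that adds nucleotides to antigen-receptor gene ends in immature lymphocytes, fell by 2.26 in mice labelled Il10-/- (SE 0.40, limma adjusted p = 0.00254). Its difference in mice labelled WT was -2.19 (SE 0.61, adjusted p = 0.0253), without overlap of the groups and not called. With replicates 1 and 2 averaged, Dntt alone was called in mice labelled Il10-/-.

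The complex of Mre11, Rad50 and Nbn detects ends and activates ATM. For Mre11a the difference was 0.30 in mice labelled WT (SE 0.54, limma adjusted p = 0.76) and -0.69 (SE 0.30, adjusted p = 0.121) in mice labelled Il10-/-. The values of Rad50 (A_55_P2042958) were -0.18 (SE 0.47, limma adjusted p = 0.844) and -0.80 (SE 0.24, adjusted p = 0.0305), the latter without overlap and not called. Its second probe differed by -0.31 and -0.15. Nbn did not pass the background filter and was not tested. Over the 31 other genes with a main probe, the median difference was 0.04 in mice labelled WT (17 positive, 14 negative) and -0.43 in mice labelled Il10-/- (7 positive, 24 negative).

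**Figure D5:**
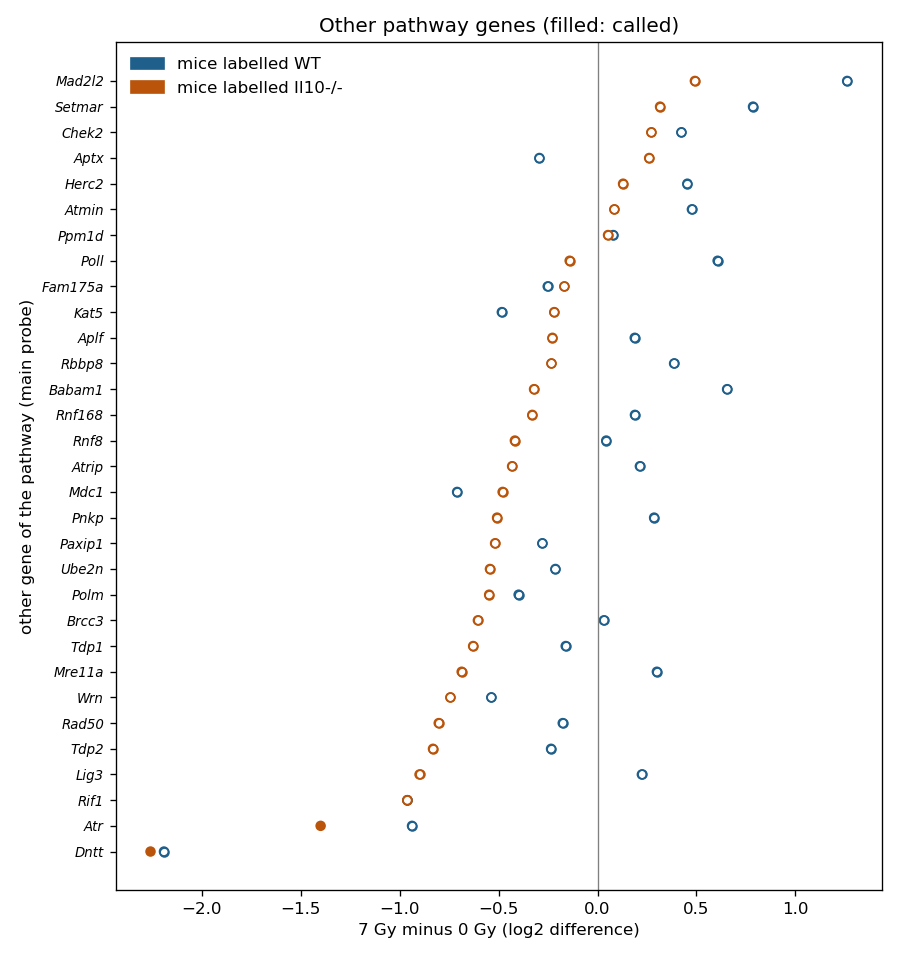
Difference of 7 Gy minus 0 Gy (log2) for the main probes of 31 other pathway genes in mice labelled WT (blue) and Il10-/- (orange), ordered by the latter and filled where called. Dntt (-2.26) and Atr (-1.40) are the 2 called genes, and 24 of the 31 orange points lie below 0.

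Among the genes that are not members, the profiles most like that of a called member over the 20 arrays were found by the root mean square distance after centring. For Atm, whose own spread was 0.93, these were Macf1 (0.38), Naa30 (0.39) and Dnajc9 (0.40). For Prkdc, with a spread of 0.90, they were Dido1 (0.35), Helq (0.36) and Qrsl1 (0.36). For Trp53bp1, with a spread of 0.76, they were Rock1 (0.21), Eaf1 (0.22) and Golga7 (0.22). These distances are descriptions over arrays that share batch and scaling.

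Markers of blood cell types moved in the same comparisons. Of 7 measured B-cell markers, 6 were called lower after 7 Gy in each genotype, and their mean level ran from 4.89 to 6.18 against 2.72 to 3.60 in mice labelled WT and from 4.86 to 5.81 against 2.52 to 3.08 in mice labelled Il10-/-. Of the T-cell markers, 7 were tested and 1 was called lower in each genotype, with levels of 4.72 to 6.59 against 4.33 to 5.80 and of 6.18 to 6.47 against 4.95 to 5.90. NK-cell and platelet markers had 0 calls in either response, 5 monocyte markers had 2 called higher and 1 lower in mice labelled WT and 2 lower in mice labelled Il10-/-, 6 erythroid markers had 1 higher and 3 lower, and 3 lower, and no marker of B, T or NK cells was below background on every array of a group. In whole blood, fewer cells of a type and less RNA per cell cannot be told apart, and the part of cell composition in the falls of Atm, Prkdc and Trp53bp1 was not tested.

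Neutrophil markers lay between 6.23 and 7.93 in unirradiated mice labelled WT and between 8.41 and 9.92 in those labelled Il10-/-, with 4 of 7 called higher. After 7 Gy, 0 of the 7 were called in either genotype. Their median difference from 0 Gy was -0.07 in mice labelled WT and -0.80 in mice labelled Il10-/-. Transcripts of liver and heart muscle, which are no blood cells, also varied. After 7 Gy, 5 of 5 heart markers were called higher in mice labelled Il10-/- (median 5.84) and 0 in mice labelled WT (median 3.63), and 5 of 6 liver markers in mice labelled WT (median 8.33) and 0 in mice labelled Il10-/- (median 1.91). The mean level of 6 liver markers ran from -0.59 to 2.41 and from 3.18 to 12.39 at 0 and 7 Gy in mice labelled WT, and from 2.59 to 10.60 and 1.00 to 10.59 in mice labelled Il10-/-. That of 5 heart markers ran from -0.85 to 2.44 and 0.13 to 8.03, and from -0.68 to 3.57 and 1.83 to 7.82. Their part in the members' differences was not tested.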

How the data were processed

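The authors deposited Agilent Feature Extraction output for each array, with a background-subtracted intensity per spot that is not normalized between arrays, and a table of log2 values, used as an alternative only. The methods name Feature Extraction 10.7, and the headers 12.0.2.2. Intensities were converted to log2, repeated spots averaged and each array's median over 39429 probes subtracted. Probes were removed if 25% of the arrays or more marked them as outliers or at background, as were probes without a 1.5-fold deviation on 20% of the arrays. Differences were fitted with limma 3.58.1 in R 4.3.3, on the 10 arrays of each comparison. The calls were tested on simulated data. Of the probes given a change of 1 (log2) there, 4 were recovered between doses in mice labelled WT and 19 in mice labelled Il10-/-. For the difference of these responses the number was 0. With a change of 2 the numbers were 54, 84 and 20, in the same order. Of the probes given no change, 5, 9 and 1 were called, in that order again. The number of probes given a change is not stated here, so these are counts and not rates. The part of this unequal recovery in the contrast of calls between the genotypes was not tested. The members and lists were chosen with earlier results of these data known. All 10 members are named, with called pathway genes, the Mre11 complex and the 3 nearest profiles per called member. Positions of probes are in mm9. Alternatives covered scaling, background correction, filters, array weights, the slide as a block, the threshold and each array left out. The number of arrays limits the precision.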

Additional observations from a re-analysis of the deposited data

Results flagged for a closer look

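In 40 groups of 5 arrays (10 genes, 4 groups) a gap test picked out 5 single arrays that stood apart from the other 4, and chance alone picks about 1 in 20 groups. Of these, 3 come from the unirradiated replicate 5 labelled WT, the array with the weakest signal. It read 0.38 for Trp53bp1 where the nearest array read 1.96, 2.10 for H2afx where the nearest read 4.42, and 0.51 for Nhej1 where the nearest read 2.16. Replicate 3 of the irradiated mice labelled Il10-/- read 3.26 for Xrcc6, with the nearest at 3.73. Replicate 3 of the unirradiated mice labelled Il10-/- read 2.49 for Nhej1, with the nearest at 2.90. No member differed between the responses of the genotypes by the interaction or by opposite movement of all arrays.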

How the results depend on the processing

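Of the 10 members, 3 were called in mice labelled Il10-/- and 0 in mice labelled WT in the main analysis. In mice labelled Il10-/- the count became 1 when arrays were scaled to the reference array, after quantile normalization, with the series table and among probes well above background on 75% of arrays, 0 with normexp, with all 4 groups in 1 fit and with replicates 1 and 2 averaged (an alternative chosen after seeing the data), and 5 with array weights. Among probes well above background on 75% of arrays, Atm and Prkdc were not tested. Their main probes were well above background on only 7 and 10 arrays. With normexp none of the 3 called genes passed the filters, so none of them was tested there. In mice labelled WT the count became 4 with array weights (Atm, Lig4, Prkdc and Trp53bp1). With each array left out, it ran from 0 to 3 in mice labelled Il10-/-, and it was 0 without replicate 1 or 2 at 0 Gy and without replicate 1, 4 or 5 at 7 Gy. It ran from 0 to 2 in mice labelled WT, and was 2 without replicate 5 at 0 Gy. Of the 10 refits in mice labelled Il10-/-, Atm was called in 5, Prkdc in 4 and Trp53bp1 in 2, with differences of -1.73 to -1.33, -1.57 to -1.24 and -1.54 to -1.18. The share of all probes called under each of these settings is not given here, nor for the other pathway genes below. From these counts, a general change in calls and a change of the members therefore cannot be told apart.

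Other pathway genes called in mice labelled Il10-/- (2) became 1 with quantile normalization, the slide as a block and averaged replicates, 0 with normexp and the series table, 7 with array weights and 5 at a rate below 5% alone, and ran from 1 to 3 with an array left out. In mice labelled WT (0) they became 1 with the series table, the block and a rate below 5% alone, 2 in the joint fit and 3 with weights, and at 0 Gy between genotypes 1 with weights. The members' median relative to all tested probes (-0.06 in mice labelled WT, -0.61 in mice labelled Il10-/-, -0.22 for the difference of responses) became -0.56, 0.056 and 0.65 with normexp, -0.76 in mice labelled WT with the series table, and -1.07 in mice labelled Il10-/- without both filters. With an array left out these ran from -0.25 to 0.05, -0.71 to -0.50 and -0.30 to -0.02. With normexp the called members are not among the tested probes, so the medians there are over unlike sets. The cause of these changes was not tested.

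With the replicate number, which marks the slide, as a block, 2 members (Atm and Trp53bp1) were called in mice labelled Il10-/- and 0 in mice labelled WT. Deviations of same-numbered arrays correlated by 0.06 to 0.32 in mice labelled WT (4 of 5 over 0.1), by -0.37 to 0.41 in mice labelled Il10-/-, by -0.34 to 0.20 between genotypes at 0 Gy and by -0.02 to 0.68 at 7 Gy, where 4 of 5 were over 0.1. In none of the 4 comparisons were all 5 over 0.1, and the main fits leave the slide out. This cut-off does not decide whether arrays of a slide share variation. Signal over background limits Atm, Prkdc and Lig4 after exposure.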
